A study of Mus musculus with 16 samples.

Results

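The cytosolic ribosomal protein genes were taken as the genes whose mouse symbol is Rps or Rpl followed by a number, with an optional ending a, al, x, l or l1, together with Rplp0, Rplp1, Rplp2 and Rpsa. Pseudogenes named with -ps were left out. Of 24334 genes measured, 82 had such a symbol, and 81 of them exceeded the data set's lowest value by 1 log2 unit or more in 4 or more of the 16 libraries. These 81 genes, 31 of the small (40S) and 50 of the large (60S) subunit, are described here among 15715 genes that passed the same filter. The gene that did not pass was Rpl32l, whose highest value was 5.62 against a lowest value of 4.84 in every library.

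Each cytosolic ribosome carries a copy of nearly every one of these proteins, and a cell needs them in matched amounts. Their mRNAs are among the most abundant of a growing cell, and most start with a C followed by a run of pyrimidines, the TOP motif, through which mTORC1 and the RNA-binding protein LARP1 control their translation. The transcription factor MYC is known to raise ribosomal RNA synthesis and the transcription of ribosome assembly and ribosomal protein genes, which makes this family a usual readout when MYC is inhibited in a tumour.

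RNA was sequenced from enriched tumour cells of mice that carried LLC1, a Lewis lung carcinoma line of mouse, and were treated for 16 days. The groups were Vehicle (DMSO), TMP195 (50 mg/kg), an inhibitor of class IIa histone deacetylases, MYCi975 (50 mg/kg), an inhibitor of MYC, and Combo, which received both compounds at doses that the labels do not break down. Each group holds 4 libraries, numbered 1 to 4, and the labels state neither age nor strain of the mice. Whether each library is a separate mouse is not said either, so p-values below measure only how these libraries scatter, which may be technical.

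The deposited values are variance-stabilised (VST) and close to log2 of a normalised read count. The read depth per library is unknown, and the number of genes at the lowest value ran from 1960 to 3130 per library. Hmga2, a chromatin protein of embryonic and many tumour cells, read 13.39 to 14.24. Of a list of 12 epithelial and carcinoma markers, Cdh1, Epcam, Cldn4 and Cldn7 were below the filter, and Sftpc and Nkx2-1 were not measured. The keratin genes Krt7, Krt8, Krt18 and Krt19 passed the filter, as did Hmga2 and Vim, and Krt7 read 6.43 to 7.83. The mean of the 8 leukocyte markers that passed the filter (of 9) lay between 6.13 and 8.01 over the libraries. Libraries Vehicle 4, TMP195 4 and MYCi975 4 stood apart from the other 13 on the first principal component of all tested genes, with scores of 33.2, 32.0 and 26.6, while Combo 4 scored 5.32. Family medians, and the named differences that moved most, are given with and without them. In bulk RNA, fewer cells of a type and less RNA per cell cannot be told apart.

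The TOP motif is shown first, because these mRNAs are known for it. RefSeq windows from 250 bases before to 50 after the annotated start (GRCm38.p6) were matched by symbol for 60 of the 81 genes. A C followed by at least 7 further C or T, beginning within 10 bases of the annotated start on the gene's strand, was found in 24 of 60 members (40.0%), against 10.4% of the 10235 tested genes with a window. The share was 39.1% in the small and 40.5% in the large subunit. Shorter runs were not counted, so this is not the share of all TOP mRNAs. Rpl11, Rpl12, Rps3 and Rps16 were among the members without such a run. The stretches below come from members with such a run and span 15 bases on each side of the annotated start. They are those of Rps6 (chr4:86857353-86857382, minus strand) and Rps27 (chr3:90213634-90213663, minus strand), with the pyrimidine run in capitals.
Rps6: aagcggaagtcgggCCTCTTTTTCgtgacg
Rps27: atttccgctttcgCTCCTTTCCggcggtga
The E-box CACGTG, the sequence that MYC and MAX bind, was present on either strand in 6 of 60 windows, against 11.4% of tested genes. CCGGAAG, the core that ETS-family factors such as GABPA bind, was present on either strand in 24 of 60 (40.0%), against 20.01%. TATAAA on the gene's strand was present in 6 of 60, against 5.58%. These shares describe letters in the windows and say nothing of binding.

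A second sequence feature bears on how single members were measured. Mammalian ribosomal protein genes have many processed copies elsewhere in the genome. A protein-coding transcript was found in GENCODE M21 for 80 members, all but Rpl6l. For these, a median of 95.5% of all 31-base stretches of the coding sequence also occurred in a transcript of another gene. For 30 members all of them did. Rpl11 (chr4:136028265-136053428, minus strand, GRCm38) and the processed pseudogene Gm10288 (chr3:146838811-146839347, minus strand) are shown because libraries high in the first were low in the second. They differ at 1 of 537 coding bases, G86A counted from the first coding base, printed in capitals within coding bases 56 to 116.
Rpl11: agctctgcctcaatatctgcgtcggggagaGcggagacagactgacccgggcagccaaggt
Gm10288: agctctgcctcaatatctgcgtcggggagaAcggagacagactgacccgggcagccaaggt
Reads from the shared stretches cannot be assigned to 1 of the copies by sequence, and the values below are those of the authors' assignment.

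The ribosomal protein genes as a family differed little between the 4 groups. Averaged over the 81 members, the VST value was 12.39 ± 0.20 in Vehicle, 12.30 ± 0.11 in TMP195, 12.37 ± 0.07 in MYCi975 and 12.24 ± 0.08 in Combo (mean ± SD, n = 4 libraries each). By library these means were 12.42, 12.27, 12.21 and 12.66 in Vehicle, 12.37, 12.22, 12.18 and 12.41 in TMP195, 12.44, 12.27, 12.36 and 12.41 in MYCi975, and 12.31, 12.13, 12.26 and 12.27 in Combo. Vehicle 4 was the highest and Combo 2 the lowest, and the ranges of all 4 groups overlapped. The Vehicle libraries alone spanned more than the largest difference between group means.

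The small and large subunits moved together from library to library. The small subunit mean was 12.41 ± 0.19 in Vehicle, 12.32 ± 0.11 in TMP195, 12.38 ± 0.05 in MYCi975 and 12.27 ± 0.07 in Combo, and the large subunit mean was 12.38 ± 0.21, 12.28 ± 0.11, 12.36 ± 0.09 and 12.23 ± 0.09 in the same order. The difference between the subunits within a library isolates any imbalance, although its zero depends on which genes are averaged, since VST values are not per length. Small minus large was 0.02, 0.09, 0.02 and 0.02 in the Vehicle libraries, -0.04, 0.08, 0.03 and 0.09 in TMP195, 0.00, 0.07, 0.02 and -0.01 in MYCi975, and -0.04, 0.05, 0.07 and 0.06 in Combo. The group means of this difference were 0.04 ± 0.03, 0.04 ± 0.06, 0.02 ± 0.03 and 0.04 ± 0.05. They lay closer together than the SD within any group, so with means over members no imbalance between the subunits was detectable at this spread. With medians over members the value was 0.08 in Vehicle, 0.11 in TMP195 and -0.02 in MYCi975. These lay further apart than the SDs above, and their own spread within groups is not given here.

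**Figure D1:**
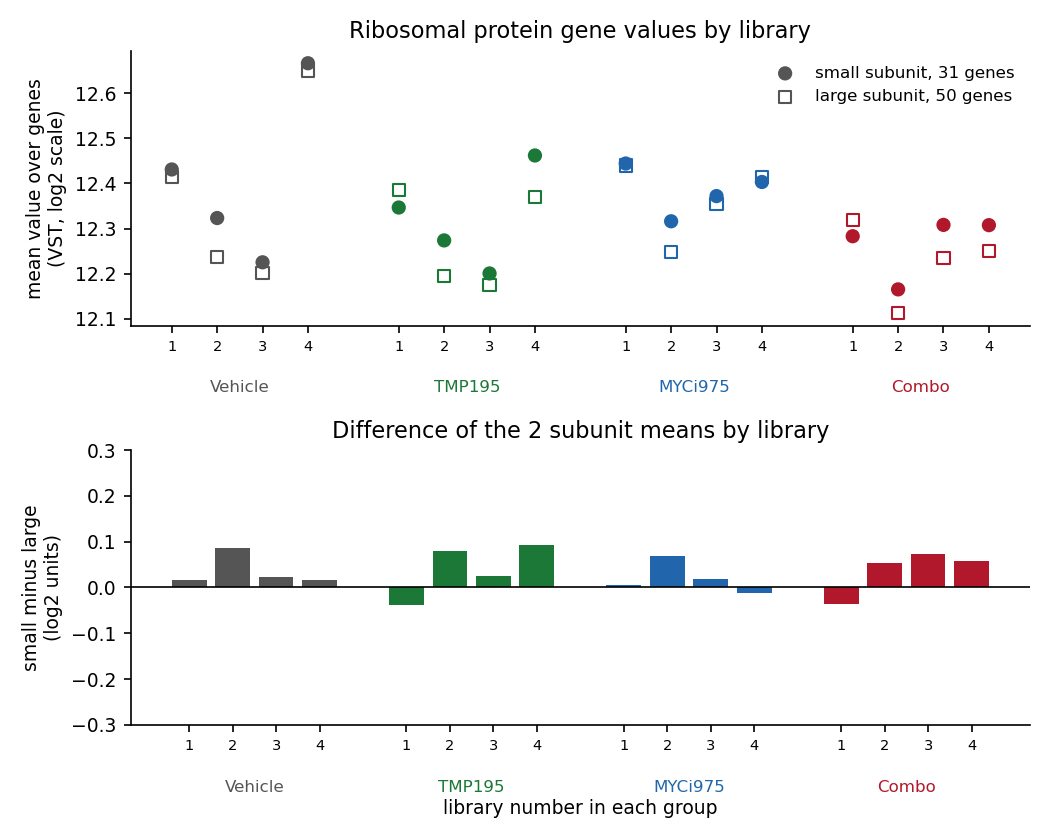
Top, mean VST value (log2 scale) of the 31 small subunit genes (filled circles) and 50 large subunit genes (open squares) in each of the 16 libraries. Bottom, small minus large subunit mean in log2 units per library; the bars stay between -0.04 and 0.09 in all 4 groups, while both subunit means are highest in Vehicle 4.

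No ribosomal protein gene passed an adjusted p of 0.05 in any comparison (limma, Benjamini-Hochberg over 15715 genes), and neither did any other gene, 0.0% of those tested in each. The comparisons with Vehicle share the same 4 Vehicle libraries. The following paragraphs therefore give sizes and intervals. A 95% interval of a single member's difference reached a median of 0.35 log2 units to either side, from 0.17 for the least to 0.94 for the most variable member. For TMP195 against Vehicle 78 of the 81 intervals lay wholly between -1 and 1, for MYCi975 77 and for Combo 73. A doubling or halving of those members was thus outside their intervals. Wholly between -0.5 and 0.5 lay 45, 51 and 44 of the 81 intervals in the same order.

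TMP195 against Vehicle asks what the deacetylase inhibitor does alone. Values were lower in TMP195 for 67 of the 81 members, against 53.7% of all tested genes. The median difference was -0.09 log2 units, or 5.82% lower, against -0.01 for all tested genes. Over the 11597 genes that passed a stricter filter, the median against Vehicle was -0.04 in TMP195, -0.02 in MYCi975 and -0.03 in Combo. The small subunit had 26 of 31 members lower (median -0.09) and the large subunit 41 of 50 (median -0.09). At an unadjusted p under 0.05, 4 members were lower and 0 higher, namely Rpl10a, Rpl15, Rpl28 and Rpl32, against 2.44% of tested genes lower, 2.44% higher and 4.88% (767) in either direction. Without Vehicle 4 the count of lower members was 42 of 81 and the median -0.01. Those counts and medians also moved with other libraries: without TMP195 3 the median was -0.04, and without Vehicle 2 or Vehicle 3 it was -0.13. Leaving out all 4 libraries numbered 4 gave 50 of 81 lower and a median of -0.03.

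Rpl10a, a protein of the mobile L1 stalk of the large subunit, had the smallest p among members in this comparison. Its values were 12.61, 12.44, 12.44 and 12.40 in Vehicle, 12.24, 12.33, 12.04 and 12.02 in TMP195, 12.59, 12.35, 12.52 and 12.44 in MYCi975, and 12.46, 12.31, 12.14 and 12.50 in Combo. All TMP195 libraries lay below all Vehicle and all MYCi975 libraries, and the Combo libraries overlapped every group. TMP195 minus Vehicle was -0.31 ± 0.10 (SE), unadjusted p = 0.00744 and adjusted p = 0.945 by limma. When the values of near-identical copies were added to it the difference was -0.09. Rpl28 was 11.35, 11.09, 11.02 and 11.42 in Vehicle and 10.87, 10.81, 10.91 and 10.82 in TMP195, a difference of -0.37 ± 0.17. These were the only members whose 4 TMP195 libraries all lay below the 4 Vehicle libraries, 2 of 81 against 1.4% of tested genes, and none lay wholly above, against 1.1%.

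Rpl15, a large subunit protein needed early in 60S assembly, was 12.35, 12.23, 12.06 and 12.36 in Vehicle, 12.11, 11.70, 11.88 and 12.07 in TMP195, 12.38, 11.99, 12.26 and 12.15 in MYCi975, and 12.14, 12.12, 11.82 and 11.66 in Combo. The TMP195 and Combo values were mostly below those of the other groups, and Vehicle 3 and MYCi975 2 lay within their range. Its differences from Vehicle were -0.31 ± 0.13 in both TMP195 and Combo. Without the libraries numbered 4 they were -0.32 in TMP195 and -0.18 in Combo, where the unadjusted p was then above 0.05. Among the small subunit genes, TMP195 minus Vehicle was -0.31 ± 0.17 for Rps25, a protein used in internal initiation on some viral and cellular mRNAs, and -0.23 ± 0.13 for Rps26, which lies at the mRNA exit channel. The Rps26 value was -0.14 without Vehicle 4.

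Leukocyte markers are given beside these values, and none of them passed the adjusted threshold. The mean of the 8 tested leukocyte markers was 6.24 to 6.73 in Vehicle and 6.46 to 8.01 in TMP195, with overlapping ranges. All 8 had a higher mean in TMP195, against 7270 of all 15715 tested genes. At an unadjusted p under 0.05 by limma, 6 of the 8 were higher, against 2.44% of tested genes. The mean of the 6 tested macrophage markers (of 12) was 6.22 to 6.81 in Vehicle and 6.45 to 8.19 in TMP195. Those 6 were Ccr2, Cd68, Csf1r, Itgam, Lyz2 and Mrc1. All 6 had a higher mean in TMP195 than in Vehicle, 5 of them at an unadjusted p under 0.05 by limma, against the same 2.44%. Adgre1, C1qa, C1qb, C1qc, Cd163 and Ms4a7 of the same list were below the filter. With the leukocyte mean as a covariate, 72 of 81 members were lower in TMP195 and the median was -0.16.

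Combo against Vehicle asks what both compounds do together. Values were lower in Combo for 68 of 81 members, against 52.6% of tested genes, with a median of -0.12 log2 units, or 7.83% lower, against -0.01 for all tested genes. The small subunit had 26 of 31 lower (median -0.12) and the large subunit 42 of 50 (median -0.11). At an unadjusted p under 0.05, 4 members were lower and 0 higher, among them Rpl12, Rpl15 and Rpl27, against 1.92% of tested genes lower, 2.17% higher and 4.09% (642) in either direction. Without Vehicle 4, 55 of 81 were lower and the median was -0.05. Without the 4 libraries numbered 4 these values were 61 of 81 and -0.07.

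Rpl12, which sits with Rplp0 at the base of the stalk that recruits translation factors, was the member that set Combo apart most evenly. Its values were 11.23, 11.06, 11.24 and 11.30 in Vehicle, 11.23, 11.29, 11.09 and 11.12 in TMP195, 11.15, 11.20, 11.23 and 11.09 in MYCi975, and 10.97, 10.90, 10.96 and 11.00 in Combo. All 4 Combo libraries lay below the other 12, and the other 3 groups overlapped. Combo minus Vehicle was -0.25 ± 0.08 (SE), 95% interval -0.43 to -0.07, or 15.9% lower, with unadjusted p = 0.00845 and adjusted p = 0.987 by limma. Combo minus MYCi975 was -0.21 ± 0.08 and Combo minus TMP195 -0.23 ± 0.08. The transcribed processed pseudogene Gm10275 (chr10:29698746-29699380, GRCm38), whose copy of the coding sequence is identical, read a mean of 12.01 and was highest in Vehicle 4 (13.83) and TMP195 4 (13.20), and with its copies added Combo minus Vehicle was -0.40 ± 0.32.

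Rpl27 was 9.61, 9.47, 9.24 and 10.11 in Vehicle and 9.20, 9.34, 9.12 and 9.23 in Combo, a difference of -0.39 ± 0.18, with Vehicle 3 inside the Combo range. It was -0.22 without Vehicle 4, and also -0.22 without all 4 libraries numbered 4, where the unadjusted p was above 0.05. Rpl12 was among the 2 of 81 members whose Combo libraries all lay below Vehicle, against 1.53% of tested genes, and none lay wholly above, against 1.79%.

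**Figure D2:**
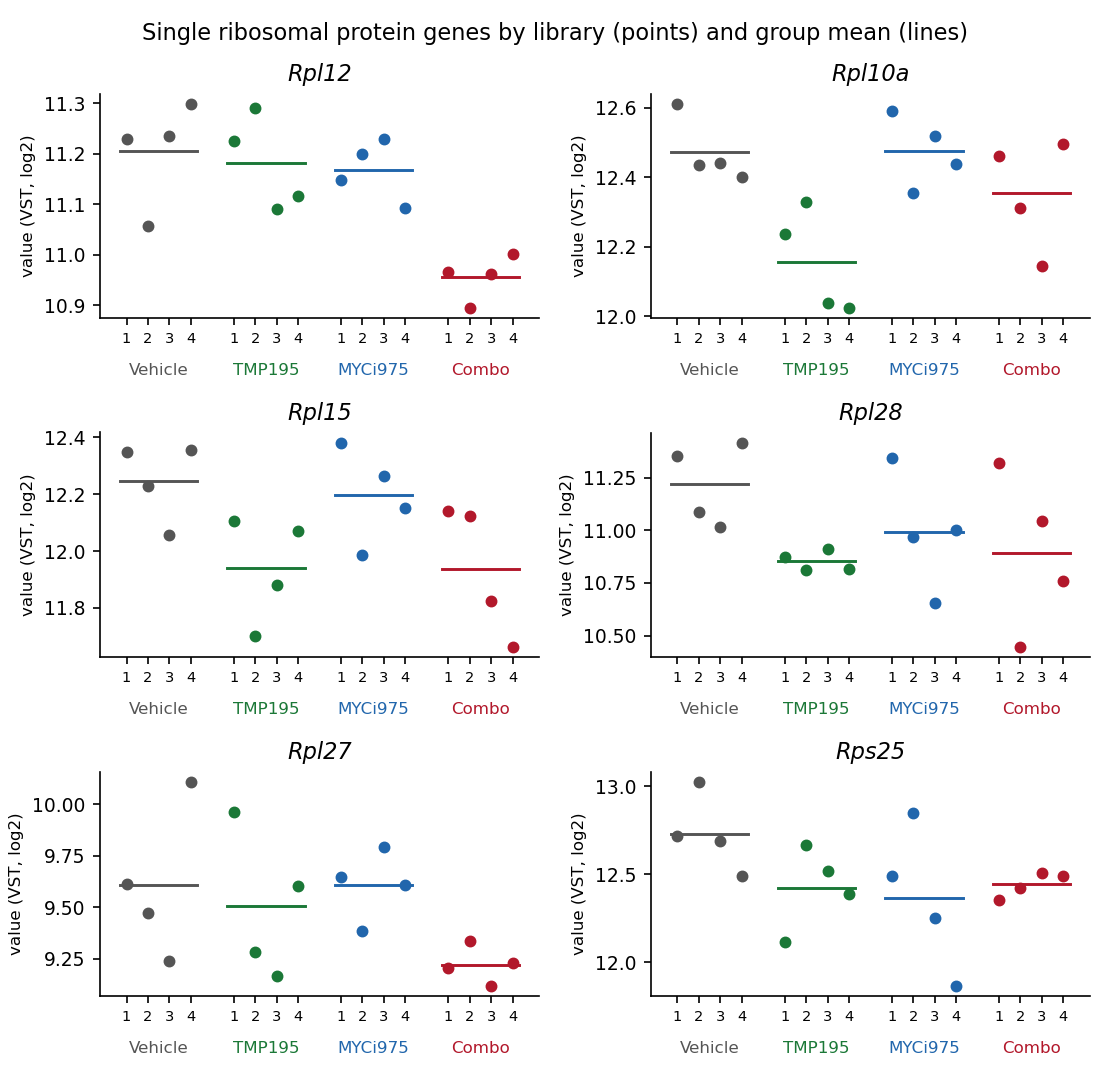
VST value (log2 scale) of 6 ribosomal protein genes in each library (points), with the group mean (lines); each panel has its own axis range. The Combo libraries of Rpl12 (10.90 to 11.00) lie below all other libraries, the TMP195 libraries of Rpl10a lie below Vehicle, the TMP195 libraries of Rpl28 also lie below Vehicle, and the Combo and Vehicle libraries of Rpl15, Rpl27 and Rps25 overlap.

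MYCi975 against Vehicle asks what the MYC inhibitor does alone, and here the median member lay close to Vehicle. Values were lower in MYCi975 for 48 of 81 members, against 52.9% of tested genes, with a median of -0.02 log2 units, or 1.22% lower, against -0.01 for all tested genes. The small subunit median was -0.01 and the large subunit median -0.02. At an unadjusted p under 0.05, 1 member was lower and 0 higher, against 1.51% of tested genes lower, 1.51% higher and 3.03% (476) in either direction. The median turned to 0.06 without Vehicle 4 (30 of 81 lower), to 0.02 without MYCi975 2 and to 0.06 without the 4 libraries numbered 4. It was -0.06 without Vehicle 2, -0.08 without Vehicle 3 and -0.04 without MYCi975 1. No member had MYCi975 and Vehicle libraries that did not overlap, against 0.706% of tested genes lower and 0.789% higher.

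The lower member was Rps25, with 12.72, 13.03, 12.69 and 12.49 in Vehicle, 12.12, 12.67, 12.52 and 12.39 in TMP195, 12.49, 12.85, 12.25 and 11.87 in MYCi975, and 12.36, 12.42, 12.50 and 12.49 in Combo. Its MYCi975 minus Vehicle difference was -0.36 ± 0.17, unadjusted p = 0.0479 and adjusted p = 0.999 by limma, and MYCi975 4 was the lowest of the 16 libraries. Without MYCi975 4 the difference was -0.20. Rpl14, Rps10 and Rpl28 differed by -0.18 ± 0.11, -0.22 ± 0.13 and -0.23 ± 0.17. These values were -0.12 for Rpl14 without Vehicle 1, -0.34 and -0.13 for Rps10 without MYCi975 1 and MYCi975 4, and -0.34 and -0.11 for Rpl28 without MYCi975 1 and MYCi975 3. Rpl35 and Rps16 had the largest positive differences, 0.46 ± 0.24 and 0.39 ± 0.23, and in both genes MYCi975 3 and MYCi975 4 were the highest of the 16 libraries. Without MYCi975 3 the differences were 0.26 and 0.10, and without MYCi975 2 that of Rps16 was 0.65. Rpl35, at the polypeptide exit of the 60S subunit, was 13.49, 13.15, 14.42 and 14.19 in MYCi975 against 13.23, 13.14, 13.14 and 13.92 in Vehicle. Rps16 was 10.65, 10.12, 11.76 and 11.07 in MYCi975 against 10.50, 10.46, 10.30 and 10.80 in Vehicle. The pseudogene Rps16-ps2, with an identical coding sequence, was lowest in MYCi975 3, at 9.94 against 10.59 to 11.90 elsewhere, and with both rows added the Rps16 difference was -0.08 ± 0.15.

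Combo against each single compound asks what the second compound adds. Against MYCi975, 63 of 81 members were lower in Combo, against 49.8% of tested genes, with a median of -0.11 against 0.00 for all tested genes. The small subunit median was -0.10 and the large subunit median -0.12. At an unadjusted p under 0.05, 5 members were lower and 0 higher (Rpl35, Rps16, Rpl12 and Rpl27 among them), against 1.18% of tested genes lower, 1.15% higher and 2.32% (365) in either direction. Without the libraries numbered 4 the median was -0.11 and 69 of 81 members were lower. All Combo libraries lay below all MYCi975 libraries for 4 members, against 0.815% of tested genes, and none lay wholly above, against 0.891%. Against TMP195, 56 of 81 members were lower in Combo, against 49.3%, with a median of -0.03 against 0.00, and 1 member, Rpl12, was lower at an unadjusted p under 0.05, against 2.84% of tested genes lower, 2.49% higher and 5.33% (837) in either direction. Rpl12 was also the 1 member whose Combo libraries all lay below TMP195, against 1.62% of tested genes, and none lay wholly above, against 1.75%. This median was 0.00 without Combo 2, TMP195 1 or TMP195 4, -0.09 without Combo 1, and between -0.06 and -0.05 without TMP195 2 or TMP195 3. With the leukocyte mean as a covariate it was 0.03, with 31 of 81 members lower.

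The interaction, Combo minus MYCi975 minus TMP195 plus Vehicle, tests whether the compounds add up on the log scale. It was below 0 for 41 of 81 members, against 48.2% of tested genes, with a median of 0.00 against 0.01 for all tested genes, and -0.08 without the libraries numbered 4. No member reached an unadjusted p under 0.05, against 3.0% (471) of tested genes, 1.6% below 0 and 1.4% above. The smallest p values were those of Rpl35, -0.68 ± 0.34, and Rps25, 0.38 ± 0.24, the latter 0.22 without MYCi975 4. When limma tested for any difference among the groups, Rpl35 and Rpl10a ranked first among members, both with an adjusted p of 0.999. With Rpl12 and Rpl15 they were the 4 members with an unadjusted p under 0.05 there, against 3.83% (602) of tested genes.

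**Figure D3:**
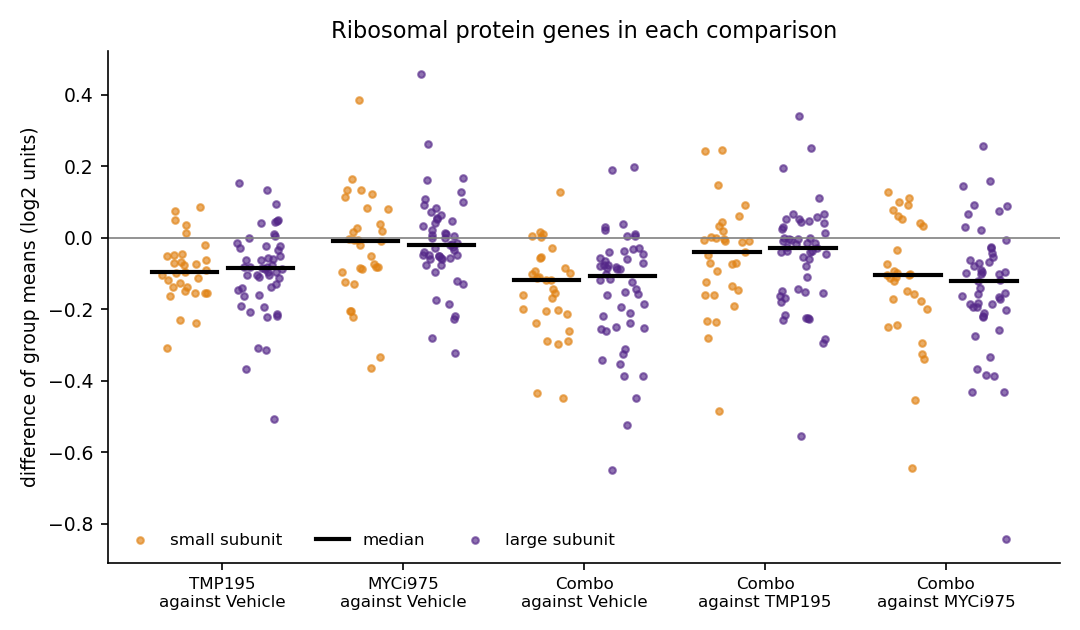
Differences of group means (log2 units) of the 31 small subunit (orange) and 50 large subunit genes (purple) in each pairwise comparison; bars mark the medians. The medians of both subunits lie near -0.1 for TMP195 and Combo against Vehicle and for Combo against MYCi975, and near 0 for MYCi975 against Vehicle.

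The members with separate roles did not stand out in the comparisons with Vehicle. Rpsa, a 40S protein also known as a laminin receptor, had differences from Vehicle of -0.15 (TMP195), 0.12 (MYCi975) and -0.06 (Combo), each ± 0.15 (SE). Rps6, the substrate of the S6 kinases, differed by 0.04, -0.20 and -0.45 in this order of groups, each ± 0.40. Rplp0, which anchors the stalk, differed by -0.13, -0.05 and -0.08 (each ± 0.12), its partner Rplp1 by -0.04, -0.17 and -0.08 (each ± 0.13), and Rplp2 by -0.06, 0.17 and -0.22 (each ± 0.40). Rpl5 and Rpl11 bind 5S ribosomal RNA and, when ribosome assembly is disturbed, MDM2, the inhibitor of p53. Rpl5 differed by -0.08, 0.05 and -0.09 (each ± 0.10), and Rpl11 by -0.06, -0.02 and -0.35 (each ± 0.45). These differences were within 2 standard errors. Without the libraries numbered 4, Combo minus Vehicle was -0.08 for Rpl11, -0.17 for Rps6 and -0.02 for Rplp2.

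The family includes 5 members that are paralogs by their symbol, given here beside the parent gene. Rps27l, a p53 target, had differences from Vehicle of -0.24, -0.09 and 0.00 in that order of groups (each ± 0.19), and its parent Rps27 by -0.16, -0.08 and -0.20 (each ± 0.19). Rpl22l1 differed by -0.06, 0.03 and 0.19 (each ± 0.29) and Rpl22 by 0.09, 0.04 and -0.06 (each ± 0.14). Rpl36al differed by -0.14, -0.06 and -0.12 (each ± 0.19) and Rpl36a by 0.13, 0.09 and 0.02 (each ± 0.22). For Rpl7l1 the differences were -0.15, -0.08 and -0.16 (each ± 0.11), for Rpl7 -0.10, -0.05 and -0.14 (each ± 0.13), for Rpl6l -0.11, -0.12 and -0.05 (each ± 0.20), and for Rpl6 -0.11, 0.02 and -0.25 (each ± 0.17). All were under 2 standard errors. Of the ribosomal proteins with other symbols, Fau, made as a fusion with a ubiquitin-like protein, differed by -0.36 ± 0.15 in TMP195, with an unadjusted p of 0.0249 and an adjusted p of 0.945 by limma. Rack1, a scaffold on the 40S head, differed by -0.11 in that comparison.

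Most of the variation of these genes lay between libraries of a group rather than between groups. For the median member, differences between the 4 groups took 12.2% of the sum of squares and differences between the 4 library numbers 54.1%, with the same degrees of freedom. Over all tested genes the medians were 16.2% and 24.7%. More variation lay between numbers than between groups for 66 of 81 members (81.5%), against 61.4% of all tested genes. The SD within groups was among the smallest for Rpl12 (0.08), and largest for Rpl11 (0.74), Rps3 (0.72) and Rpl37 (0.67).

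Rps3, a 40S protein at the mRNA entry channel, shows the pattern most plainly. It was 12.44, 12.21, 12.27 and 14.44 in Vehicle, 12.17, 12.40, 12.29 and 13.89 in TMP195, 12.30, 12.27, 12.17 and 13.29 in MYCi975, and 12.56, 12.18, 12.52 and 12.37 in Combo. The libraries numbered 4 of the first 3 groups were the highest 3 of the 16, and Combo 4 lay among the rest. Rpl37 was 8.95, 8.69, 9.20 and 10.88 in Vehicle, 8.90, 9.06, 8.90 and 10.49 in TMP195, 8.88, 8.85, 9.36 and 9.75 in MYCi975, and 8.92, 8.75, 8.49 and 8.95 in Combo. Rplp2 was 13.52, 13.63, 13.95 and 15.22 in Vehicle, 13.43, 13.75, 13.96 and 14.95 in TMP195, 13.41, 14.26, 14.30 and 15.01 in MYCi975, and 13.27, 13.66, 14.10 and 14.42 in Combo. For both, the same 3 libraries were the highest. The opposite held for Rpl10, chosen after its values were seen, with 13.57, 13.72, 13.26 and 11.80 in Vehicle, 13.44, 13.18, 13.19 and 11.97 in TMP195, 13.77, 13.13, 12.89 and 12.32 in MYCi975, and 13.49, 13.34, 13.11 and 13.20 in Combo.

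Library 4 exceeded the mean of the other 3 of its group by more than 1 log2 unit for 12 of 81 members in Vehicle, 7 in TMP195, 5 in MYCi975 and 0 in Combo, against 1.56%, 1.13%, 1.28% and 0.325% of all tested genes. It was more than 0.5 units higher in each of Vehicle, TMP195 and MYCi975 for 9 members, 4 of the small and 5 of the large subunit, against 1.11% of tested genes. These were Rpl11, Rpl18, Rpl35, Rpl37, Rplp2, Rps3, Rps6, Rps12 and Rps15a. It was more than 0.5 lower in each for 3 members, Rpl10 and Rpl22l1 among them, against 1.1% of tested genes. Among the 5 paralogs the library 4 difference in Vehicle, TMP195 and MYCi975 was -0.54, -1.03 and -0.96 for Rpl22l1, -0.71, -0.62 and -0.43 for Rps27l, and -0.45, -0.61 and -0.66 for Rpl6l. It was above 0 for Rpl36al, at 0.72, 0.35 and 0.46, and of mixed sign for Rpl7l1, at -0.09, 0.19 and -0.14. What sets these libraries apart was not tested, and the labels give no batch.

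**Figure D4:**
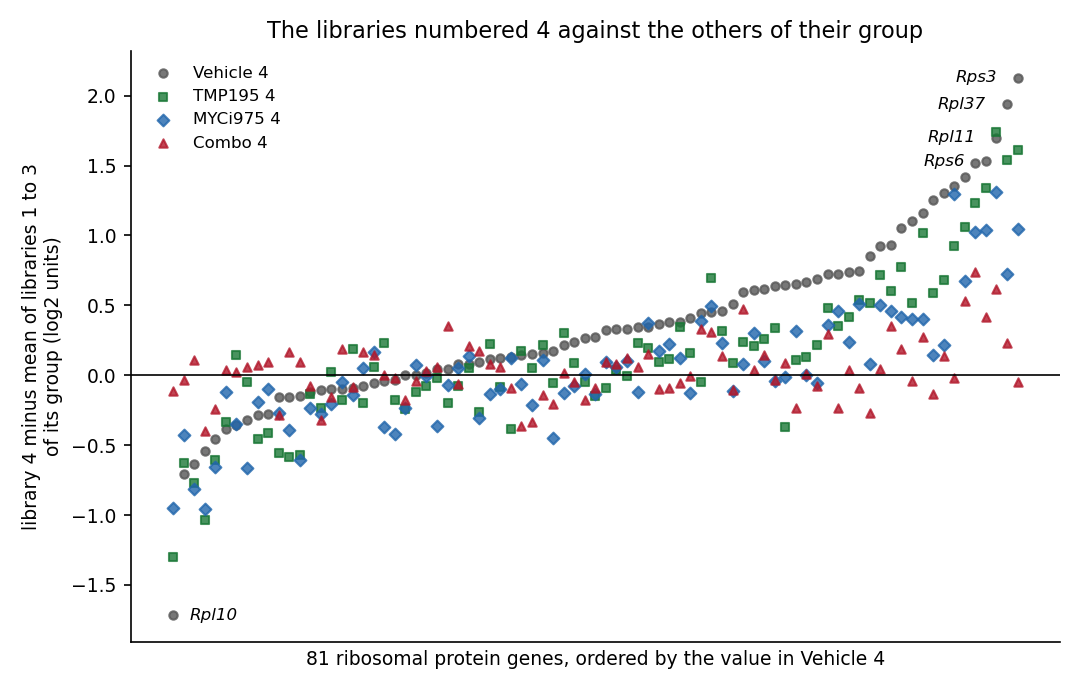
Library numbered 4 minus the mean of libraries 1 to 3 of its group (log2 units) for the 81 ribosomal protein genes, ordered by the value in Vehicle 4 (circles). The order runs from -1.72 for Rpl10 to 2.13 for Rps3 in Vehicle 4, and for these genes TMP195 4 (squares) and MYCi975 4 (diamonds) share its direction. Of the 81 genes, 32 were higher in each of these 3 libraries (18.8% of tested genes) and 16 lower in each (19.8%). Combo 4 (triangles) stays between -0.40 and 0.74.

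Some variable members, Rpl11, Rps6 and Rpl10 among them, varied against a near-identical copy. A copy was a tested gene sharing at least 80% of the member's 31-base coding stretches. There were 49 such copies for 39 members, and 22 of the copies, of 22 members, had a mean value of at least 9. Among these 22 pairs 12 had no differing coding base, and 9 of the copies read higher than the member. Gm15500 (chr7:114705217-114706235, GRCm38), a transcribed processed pseudogene with the coding sequence of Rpl5, read a mean of 15.05 against 11.90 for Rpl5, and Rps23-ps1 read 13.75 against 11.78 for Rps23. VST values are not per length, so these are levels of rows of the table and not amounts of RNA per gene.

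Gm10288 read 10.40, 10.06, 9.72 and 4.84 in Vehicle, 9.996, 10.07, 9.38 and 4.84 in TMP195, 10.06, 9.31, 9.82 and 7.18 in MYCi975, and 10.24, 9.86, 9.68 and 9.73 in Combo. Rpl11 read 9.90, 9.997, 10.28 and 11.76, then 9.80, 9.96, 10.21 and 11.73, then 9.70, 10.46, 10.25 and 11.44, and 9.96, 9.69, 10.28 and 10.59 in the same order. The 3 libraries highest in Rpl11 were thus the 3 lowest in Gm10288, at the lowest value of the table in 2 of them. Added on the linear scale, the 2 rows had an SD within groups of 0.32, against 0.74 for Rpl11, and library 4 remained above the others by 0.69, 0.81 and 0.54 in Vehicle, TMP195 and MYCi975.

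Rps6 and its pseudogene Rps6-ps4 (chr2:75191073-75191822, GRCm38), identical over 750 coding bases, showed the same relation. Rps6 was 14.73, 15.29, 14.90 and 16.51 in Vehicle, 14.70, 15.10, 15.38 and 16.40 in TMP195, 14.56, 15.48, 14.64 and 15.94 in MYCi975, and 14.38, 14.89, 15.15 and 15.22 in Combo. Rps6-ps4 was 14.28, 12.17, 13.31 and 9.74, then 14.10, 13.10, 12.39 and 11.23, then 14.32, 11.96, 13.47 and 12.36, and 14.39, 12.68, 13.08 and 13.38. In each group library 1 was the lowest in Rps6 and the highest in Rps6-ps4. The SD within groups was 0.66 for Rps6 and 0.42 for the sum. For Rpl10 and Rpl10-ps3, identical over 645 coding bases and annotated as protein coding despite its name, it was 0.63 for Rpl10 and 0.20 for the sum. The sum had the smaller spread in 13 of the 22 pairs. Rps3, with 18.9% of its coding stretches found in another gene and no tested copy, had no such partner row. Rpl37rt, a gene with a symbol like that of Rpl37, went the same way as Rpl37. It read 11.00 in Vehicle 4, 10.73 in TMP195 4 and 9.90 in MYCi975 4, and 7.64 to 8.51 elsewhere.

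**Figure D5:**
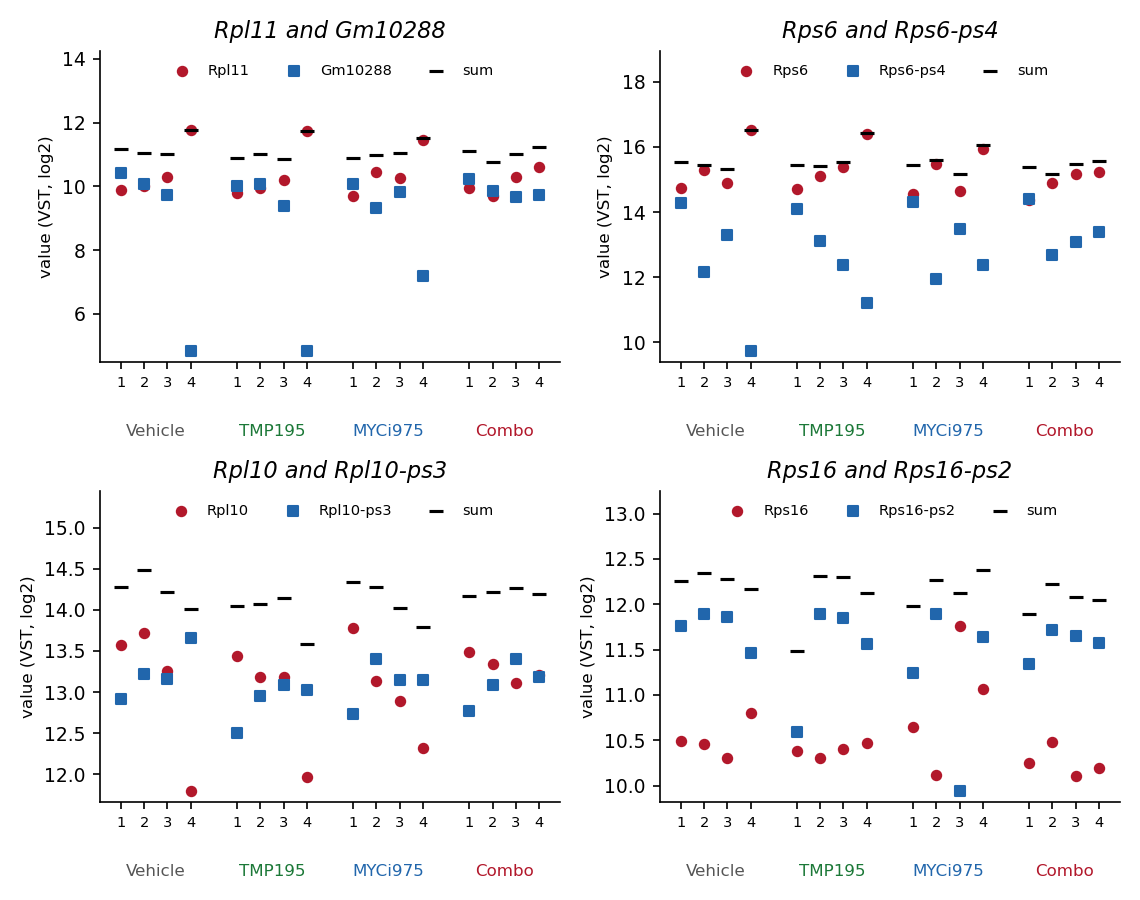
VST values (log2 scale) of 4 ribosomal protein genes (red circles), a near-identical copy of each (blue squares) and their sum on the linear scale (black dashes) in each library; each panel has its own axis range. Gm10288 drops to 4.84 in Vehicle 4 and TMP195 4 where Rpl11 reads 11.76 and 11.73, and Rps16-ps2 is lowest in MYCi975 3 where Rps16 is highest.

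With every member summed with its copies, the family medians were -0.09 for TMP195, -0.03 for MYCi975 and -0.12 for Combo against Vehicle, with 67, 50 and 66 of 81 members lower. The medians thus stayed within 0.02 of those without the copies, and single members moved more. The 51 tested pseudogenes named with -ps had medians of -0.06, 0.04 and -0.03 in the same comparisons.

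Lists of genes that make ribosomes also had medians below 0 against Vehicle, where 53.7% of all tested genes were lower in TMP195, 52.9% in MYCi975 and 52.6% in Combo, and none of their genes passed the adjusted threshold. Among 48 ribosome assembly factors, which process ribosomal RNA and build the subunits, 46 were lower in Combo than in Vehicle with a median of -0.15, and 40 were lower in TMP195 (median -0.11) and 35 in MYCi975 (median -0.04). Ddx21, a nucleolar RNA helicase, was 12.77, 12.85, 12.84 and 12.94 in Vehicle and 12.62, 12.56, 12.35 and 12.48 in Combo, a difference of -0.35 ± 0.09. Nop56, a box C/D small nucleolar RNP core protein, differed by -0.38 ± 0.11. For both, all Combo libraries lay below all Vehicle libraries, as for 8 of the 48 factors, against 1.53% of tested genes. Of 13 tested RNA polymerase I genes 10, 8 and 11 were lower than in Vehicle in TMP195, MYCi975 and Combo (medians -0.07, -0.03 and -0.11). For 12 small nucleolar RNA host genes the counts were 9, 10 and 11 (medians -0.05, -0.11 and -0.12). For 78 mitochondrial ribosomal protein genes they were 72, 52 and 63 (medians -0.13, -0.05 and -0.10), and 50 of these 78 were higher in Combo than in TMP195 (median 0.04).

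Translation genes gave similar small values. Of 34 initiation factor genes 25 were lower in Combo than in Vehicle (median -0.10), 28 in TMP195 (median -0.07) and 26 in MYCi975 (median -0.08). Of 8 elongation factor genes 7 were lower in Combo (median -0.13), 7 in TMP195 (median -0.14) and 6 in MYCi975 (median -0.08). The 12 other mRNAs with a TOP motif, such as Tpt1 and Ipo5, had 6 lower in Combo with a median of -0.01, 9 lower in TMP195 with a median of -0.08, and 11 lower in MYCi975 with a median of -0.08. The 19 tested genes of mTORC1, S6 kinase and LARP1 signalling had medians of -0.03, -0.05 and 0.00 in TMP195, MYCi975 and Combo, and the 14 chaperones and importins of ribosomal proteins -0.09, -0.02 and -0.05. The 18 tested genes of a p53 list, p53 targets and Trp53 itself, had medians of -0.01, 0.00 and 0.02.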

How the data were processed

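The authors deposited 1 table of variance-stabilised values close to log2 for 24334 mouse genes in 16 libraries. The submitters' processing notes name Salmon (no version) and the build hg38, although samples and identifiers are mouse. The stabilisation tool, the mouse annotation and the division of reads between near-identical copies are not named there. Depth is unknown, variance stabilisation compresses differences of weak genes, and the number of libraries limits the precision. Per the labels' protocols, libraries came from a stranded total RNA kit.

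Symbols matched 95.13% of identifiers. All 16 libraries were fitted together, with a mean for each group, in limma 3.58.1 (R 4.3.3, intensity trend), two-sided, adjusted by Benjamini-Hochberg over 15715 genes within each comparison, and tested on simulated data. Genes apart means that every library of a group lay below, or above, every library of the other. For sums with copies, values were added as powers of 2.

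Members and lists were chosen with earlier results of these data known, so no list has a p-value. Genes named are the 3 small and 3 large subunit members with the smallest p in each comparison with Vehicle, the 2 smallest of the interaction and of the 4-group test, the 3 most and least variable, stalk and 5S proteins, Rps6, Rpsa, Fau, Rack1, paralogs with parents, and 2 genes per other list, of which only those the text turns on are printed. Some genes that this rule names are not reported here. Copies, Rpl10, Rpl18, Rpl32, Rpl37rt, Rps12 and Rps15a were named after their values were seen. Median differences from Vehicle in TMP195, MYCi975 and Combo were 0.05, 0.10 and 0.17 for 2 tested lymphocyte markers and 0.64, 0.46 and -0.09 for 6 neutrophil markers. They were -0.07, -0.12 and -0.18 for 3 endothelial, -0.22, 0.01 and 0.35 for 8 fibroblast and 0.41, -0.02 and 0.09 for 3 erythroid markers. For 2 muscle markers they were -0.05, 0.46 and 0.12. For the 6 tested epithelial and carcinoma markers (Krt7, Krt8, Krt18, Krt19, Hmga2 and Vim) they were -0.17, -0.06 and 0.03. Alternatives were 2 other filters, no trend, robust moderation, quantile normalisation, median centring, library weights, a replicate block, a leukocyte covariate, the compared groups alone, each library left out, the libraries numbered 4 left out, members without paralogs or without named pseudogenes, other list summaries and, chosen after seeing the data, sums with copies.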

Additional observations from a re-analysis of the deposited data

Results flagged for a closer look

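Within a group of 4 libraries, the highest or lowest value stood far from the other 3 in 9 of 144 groups tested. The tests covered the members named by rule and the subunit means with their difference. Some of these members, Rps3 and Rpl37 among them, were named for their large SD within groups. The usual rate of about 1 in 20 therefore gives no yardstick for this count. Of these 9, 3 lay in Vehicle 4, 3 in TMP195 4, 2 in MYCi975 4 and 1 in Vehicle 2. Rps3 was high in Vehicle 4 (14.44), TMP195 4 (13.89) and MYCi975 4 (13.29). Rpl35 was high in Vehicle 4 (13.92) and TMP195 4 (13.60), and Rpl37 in TMP195 4 (10.49). Rps27 in Vehicle 4 (11.66) and Rplp0 in MYCi975 4 (14.89) also stood apart. The difference between the small and large subunit means was highest within Vehicle in Vehicle 2 (0.0863).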

How the results depend on the processing

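No ribosomal protein gene passed the adjusted threshold under any alternative run, and the lowest adjusted p of any member by limma was 0.164, for Combo against TMP195 with library weights. Counts over all genes, 0 in each comparison, became 65 with library weights and 1 without the intensity trend for Combo against TMP195, 1 with the compared groups alone for Combo against Vehicle, and 1 without the trend, with robust moderation, with median centring and with library weights for any difference among groups. With each library left out they ran from 0 to 2 for TMP195 against Vehicle, Combo against TMP195 and any difference, and from 0 to 1 for MYCi975 against Vehicle and Combo against MYCi975. The MYCi975 difference of Rps16 reversed to -0.0773 when summed with copies. Small minus large subunit, in Vehicle, TMP195, MYCi975 and Combo, was -0.0757, -0.0681, -0.0934 and -0.0692 without paralogs, -0.0842, -0.1182, -0.1119 and -0.0840 without members that have a named pseudogene, and -0.0972, -0.1015, -0.1147 and -0.0975 summed with copies. With medians in place of means it was 0.0835 in Vehicle, 0.1132 in TMP195 and -0.0191 in MYCi975, and in Combo it moved by less than the SD within that group. The causes were not tested.

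The library numbers pair no samples by the labels. Same-numbered libraries had correlations of their deviations from -0.24 to 0.43, over 0.1 in 15 of 24 pairs (all 6 of number 1, 2 of 6 of number 2, 1 of 6 of number 3 and all 6 of number 4), and 9 of 16 libraries correlated best with their own number. With a replicate block the count of genes past the adjusted threshold was 0 in every comparison. At an unadjusted p under 0.05 by limma, of the 81 members 6 were lower and 0 higher than in Vehicle for TMP195. For MYCi975 these counts were 4 and 1, and for Combo 10 and 0. The block raised the counts over all 15715 tested genes too, from 767, 476 and 642 to 991, 621 and 878 in either direction. Their split by direction is not given here. Combo had 14 members lower and 0 higher than in MYCi975, and 3 lower and 0 higher than in TMP195. Beside these stood 554 and 1005 of all 15715 tested genes in either direction. Median differences of the family under the other scalings against Vehicle were -0.05, -0.01 and -0.09 with median centring and -0.06, 0.03 and -0.09 with quantile normalisation, for TMP195, MYCi975 and Combo. Depth is unknown, and the number of libraries limits what could be resolved.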
